A study of Arabidopsis thaliana with 6 samples.

Results

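Glutathione transferases join the tripeptide glutathione to reactive or foreign molecules, and the products are moved into the vacuole and broken down. The tau (GSTU) and phi (GSTF) classes are found in plants, and in Arabidopsis many of their genes lie in tandem arrays. Their transcripts are widely used as markers of chemical and oxidative stress, and several are known targets of TGA factors, which bind the as-1 promoter element. The set described here was defined by gene identifier as GSTU1 to GSTU19, GSTU21 to GSTU28, GSTF2 to GSTF10, GSTF13 and GSTF14, which are 38 genes, 27 of the tau and 11 of the phi class. GSTU2 was not analysed here, and the other 37 genes had 38 entries (loci) among the 32424 loci of the deposited table, 26 of the tau and 12 of the phi class. GSTF6 and GSTF7 shared a locus, and GSTF6 and GSTF3 each had a second locus.

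The libraries came from wild-type Col-0 seedlings that were kept for 1 h in liquid medium with 1% sucrose. The medium held NAE 18:3 at 100 µM in one group and the solvent DMSO at 0.07% in the control group, with 3 libraries each. NAE 18:3 is N-linolenoylethanolamine, the ethanolamide of linolenic acid. The labels call the libraries biological replicates of 4-day-old seedlings, although the growth text gives 3 days at transfer, and they do not state the DMSO content of the NAE 18:3 medium, so the lipid and any difference in solvent cannot be told apart. Levels are FPKM (mapped fragments, normalised for transcript length and for the fragments mapped in that library), so the depth of a library is unknown from its total. The steps between low values put the DMSO libraries at 0.482 to 0.968 and the other NAE 18:3 libraries at 0.987 to 1.265 times the depth of NAE 18:3 replicate 1.

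Libraries were made from whole seedlings, so fewer cells of a type and less RNA per cell cannot be told apart. Shoot markers were detected in all libraries, and their summed level was 97870 to 103706 FPKM in the NAE 18:3 libraries and 39292 to 40563 FPKM in the DMSO libraries. All 10 were higher, where 44.1% of all loci were, and 7 of 10 with quantile normalization, where 39.8% of all loci were. Root markers summed to 54.2 to 60.8 FPKM in the NAE 18:3 libraries and 170 to 180 FPKM in the DMSO libraries. Of 13 root markers 9 passed the filter on low levels, of which 8 were lower (39.2% of all loci) and 1 did not pass the test. Under the filter, MRN1 was listed at 0 in all NAE 18:3 libraries and had 1.21 to 1.65 FPKM in the DMSO libraries. COBL9 had 0.0248 to 0.193 against 1.36 to 1.52 FPKM, and NRT2.1 0.155 to 0.227 against 0.522 to 0.780 FPKM. IRT1 was near 0 in both groups. It was listed at 0 in all NAE 18:3 libraries and had 0.0831, 0 and 0.174 FPKM in the DMSO libraries. The smallest adjusted p-values were those of CA1, RCA and LHCB2.1 among shoot markers (log2 changes of 3.63, 2.69 and 2.49) and of AGP30, THAS1 and CASP1 among root markers (-5.62, -2.82 and -1.45). The part of these organ markers in the results below was not tested.

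Upstream sequences of 3 genes are shown because they represent the largest rise of each class and a weaker rise in the same array. Among tested loci and on the log2(FPKM + 1) scale, GSTU7 had the largest rise of the tau class, GSTU6 the smallest rise in the same tandem array, and GSTF8 the largest rise of the phi class. By the ratio of means GSTU4 (17.2), whose DMSO mean was under 1 FPKM, stood above GSTU7 (15.9). The sequences are from RefSeq TAIR10.1, run 5′ to 3′ on the gene's strand and end at the base before the annotated start. They are chr2:12618900-12619199 (minus strand) for GSTU7, chr2:12621232-12621531 (minus strand) for GSTU6 and chr2:19556127-19556325 (plus strand) for GSTF8, shortened at the neighbouring gene AT2G47710. The upstream part of the GSTU7 window overlaps AT2G00850, annotated as a miscellaneous RNA. Capitals mark TGACG, the core of the as-1 element, TTGAC, the core of the W box bound by WRKY factors, and CACGTG, the G box, on either strand.
GSTU7: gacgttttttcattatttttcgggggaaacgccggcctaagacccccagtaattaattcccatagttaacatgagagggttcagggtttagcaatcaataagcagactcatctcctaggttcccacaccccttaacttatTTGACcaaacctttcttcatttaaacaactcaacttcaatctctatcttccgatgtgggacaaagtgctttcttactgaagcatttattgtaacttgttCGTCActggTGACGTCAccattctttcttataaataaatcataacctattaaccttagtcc
GSTU6: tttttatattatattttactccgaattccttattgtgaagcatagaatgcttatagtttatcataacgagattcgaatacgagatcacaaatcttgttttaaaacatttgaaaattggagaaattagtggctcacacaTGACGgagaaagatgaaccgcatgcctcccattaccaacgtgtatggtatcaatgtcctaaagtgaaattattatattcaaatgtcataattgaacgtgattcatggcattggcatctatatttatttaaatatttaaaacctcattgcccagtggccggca
GSTF8: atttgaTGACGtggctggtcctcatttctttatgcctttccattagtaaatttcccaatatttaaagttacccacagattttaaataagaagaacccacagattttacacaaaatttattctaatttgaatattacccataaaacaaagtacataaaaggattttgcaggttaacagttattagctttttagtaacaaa

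GSTU7 held TGACG 3 times, at positions -61 to -57, -52 to -48 and -49 to -45 from the start, the last 2 overlapping as a palindrome, and TTGAC at -160 to -156. GSTU6 held TGACG once, at -162 to -158, and GSTF8 once, at -193 to -189. Over windows of 300 bases, TGACG was present in 13 of 26 tau promoters and 3 of 11 phi promoters, against 21.29% of 27443 promoters of protein-coding genes. In the GSTU1 to GSTU7 array it was in 5 of 6 promoters, with GSTU4 the exception. TTGAC was present in 17 of 26 tau and 7 of 11 phi promoters, against 50.4% of all, and CACGTG in 2 tau and 1 phi promoters, against 7.09% of all. The 2 tau promoters are those of GSTU17 and GSTU18, and the GSTU18 window lies within the GSTU17 gene. For these counts, windows were not cut at neighbouring genes. TTGAC and TGACG can share bases, as in TTGACG. These matches are a description of letters in the window and not of binding.

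limma was run on log2(FPKM + 1) for loci that averaged 1 FPKM or more across the 6 libraries, and a locus was called at a Benjamini-Hochberg adjusted p under 0.05 over all 18194 loci tested. A change is the NAE 18:3 mean less the DMSO mean on that scale, which understates the change of low loci. Transcript levels differed at 83.2% of loci, so a passed test by itself is common here. Of 32 member loci tested, 16 were higher, where 44.1% of all loci were higher, and 11 were lower, where 39.2% of all loci were. Changes of at least 1 on the log2 scale were found upward at 13 member loci (18.4% of all loci) and downward at 7 (17.2% of all loci). Of these 32 loci, 6 had a mean under 1 FPKM in 1 group and so passed the filter through the other group. They were GSTU4 and GSTU12, low in DMSO, and GSTU14, GSTF5, GSTF13 and GSTF14, low after NAE 18:3. Of the 6, 5 were called, where 93.0% of all such loci were, a share that follows from the filter. The groups did not overlap at 28 of the 32 member loci, near the 84.6% of all loci tested, and these were the called loci and GSTF10. Upper-quartile scaling, which moved the median of all loci from 0.06 to -0.25, gave 15 member loci higher (32.2% of all loci) and 14 lower (52.2% of all loci). Without the filter, 17 of 38 member loci were higher (35.0% of all loci) and 12 lower (34.7% of all loci).

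Tau loci were mostly higher and phi loci moved both ways. Of 21 tau loci 13 were higher (44.1% of all loci), 6 lower (39.2% of all loci) and 2 not called. Their median log2 change was 1.04, beside 0.06 for all loci tested. Of 11 phi loci 3 were higher (44.1% of all loci), 5 lower (39.2% of all loci) and 3 not called, with a median log2 change of -0.34. At least 2-fold changes on the log2(FPKM + 1) scale numbered 11 upward and 2 downward among tau loci, and 2 upward and 5 downward among phi loci. Among all loci tested, 18.4% rose and 17.2% fell by that much. The upward tau loci include GSTU4 and GSTU12, with means under 1 FPKM in DMSO. GSTU14 among the downward tau loci, and GSTF5 and GSTF13 among the downward phi loci, had means under 1 FPKM after NAE 18:3. The downward phi loci also include the second GSTF6 locus, whose strand and copy are uncertain. These are counts over genes that share arrays and sequence, and no test of the class difference was made. The phi median depended on scaling and filter, and it was 2.49e-05 with quantile normalization and 0.07 at a minimum of 5 FPKM.

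**Figure D1:**
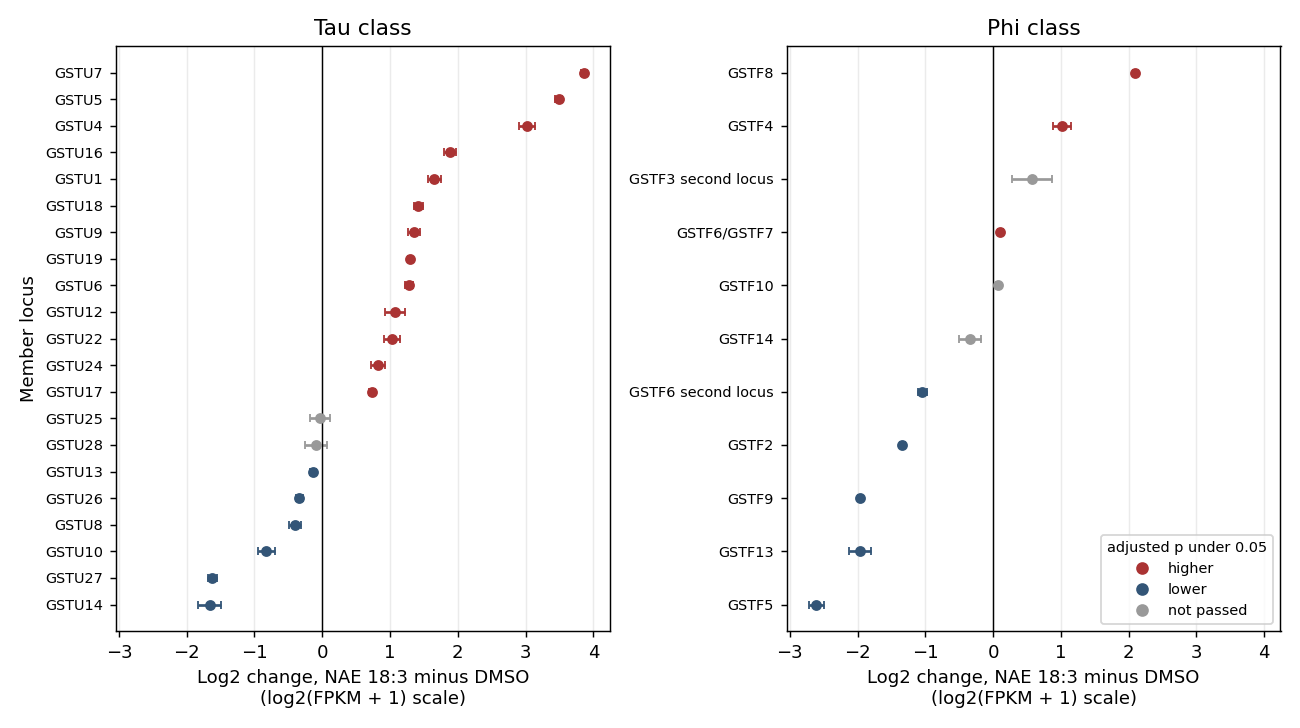
Log2 change (x axis, NAE 18:3 minus DMSO, in log2(FPKM + 1)) of each tested tau locus (left, 21 loci) and phi locus (right, 11 loci), with standard errors from limma as bars and the call at an adjusted p under 0.05 as colour. Tau loci lay from -1.66 to 3.87 with 13 called higher (44.1% of all loci), and phi loci from -2.61 to 2.099 with 5 called lower (39.2% of all loci).

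The summed level of the tau loci of the set was 1853, 1802 and 1840 FPKM in the NAE 18:3 libraries, against 628, 624 and 630 FPKM in the DMSO libraries. The tau sum was thus 2.92 times as high after NAE 18:3, and 2.29 times as high with upper-quartile scaling. It leaves out GSTU20, which lay outside the set. GSTU20 had 16.3, 15.1 and 16.99 FPKM in the NAE 18:3 libraries and 193, 198 and 202 FPKM in the DMSO libraries. With GSTU20 included the ratio would be smaller. The sum over all loci was itself 1.40 times as high after NAE 18:3. The tau and phi loci of the set together held 0.310% to 0.354% of it in the NAE 18:3 libraries and 0.269% to 0.343% in the DMSO libraries, ranges that overlapped. The phi sum of the set was 1683, 1704 and 1737 FPKM in the NAE 18:3 libraries and 1704, 1722 and 1730 FPKM in the DMSO libraries, and these ranges overlapped. It leaves out GSTF11 and GSTF12, which lay outside the set and were lower after NAE 18:3. GSTF12 had 0.477, 0.802 and 0.567 FPKM in the NAE 18:3 libraries and 50.9, 59.6 and 57.6 FPKM in the DMSO libraries. The overlap is thus a statement on the set and not on the whole class. With upper-quartile scaling the phi sums no longer overlapped, at 1495 to 1522 FPKM after NAE 18:3 and 1935 to 1955 FPKM in DMSO. The makeup of the phi sum differed between the groups. Upper-quartile scaling divides all loci of a library by a single factor, so it cannot alter these shares. GSTF8 held 43.8% to 46.0% of it in the NAE 18:3 libraries and 10.07% to 10.6% in the DMSO libraries, while GSTF9 held 8.43% to 8.64% in the NAE 18:3 libraries and 32.5% to 33.5% in the DMSO libraries. GSTF10, next to GSTF9 on chromosome 2, held 19.1% to 20.5% in the NAE 18:3 libraries and 18.1% to 19.1% in the DMSO libraries.

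**Figure D2:**
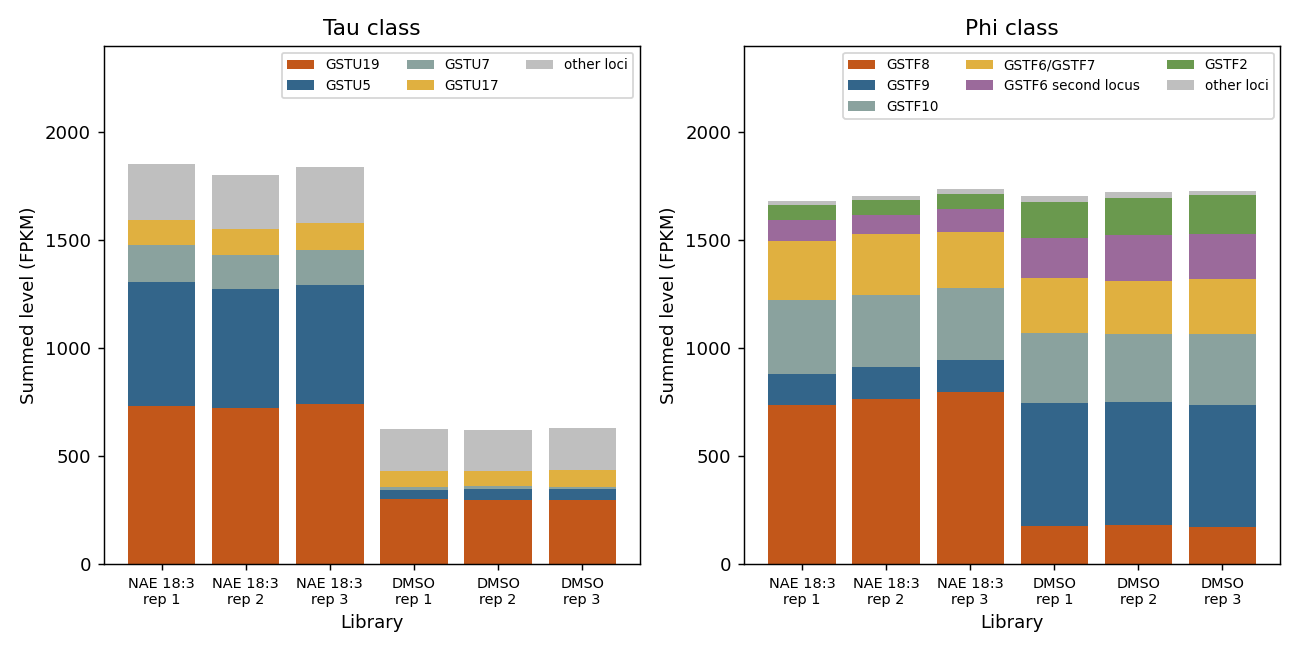
Summed FPKM (y axis) of the tau loci (left) and phi loci (right) of the set in each library (x axis, NAE 18:3 then DMSO), stacked by the most abundant loci. GSTU20, GSTF11 and GSTF12 are outside the set and not included. The tau bars stand at 1802 to 1853 FPKM after NAE 18:3 and 624 to 630 FPKM in DMSO, and the phi bars are of like height while GSTF8 is the largest phi segment after NAE 18:3 and GSTF9 in DMSO.

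The array GSTU1 to GSTU7 (chr2:12617936-12632538, TAIR10.1) held the 3 largest rises among tested member loci on the log2(FPKM + 1) scale, at GSTU7, GSTU5 and GSTU4. All 5 of its tested loci were higher, with log2 changes from 1.28 to 3.87 and a median of 3.02. GSTU7 (AT2G29420), described in the deposited annotation as induced by salicylic acid, had 169.7, 157 and 160.2 FPKM in the NAE 18:3 libraries and 10.6, 10.04 and 9.95 FPKM in the DMSO libraries. The groups did not overlap, and the log2 change was 3.87 (SE 0.04; limma adjusted p = 4.09e-11). GSTU5 (AT2G29450), described there as induced by auxin, pathogens and herbicides, had 572, 549 and 549 FPKM in the NAE 18:3 libraries and 45.2, 52.1 and 48.6 FPKM in the DMSO libraries. All NAE 18:3 values were over 10 times the DMSO values, and GSTU5 made up 29.8% to 30.8% of the tau sum in the NAE 18:3 libraries and 7.19% to 8.36% in the DMSO libraries. GSTU4 (AT2G29460) had 14.6, 12.9 and 12.6 FPKM in the NAE 18:3 libraries and 0.545, 1.05 and 0.745 FPKM in the DMSO libraries. Its mean was 17.2 times as high after NAE 18:3, with a log2 change of 3.02 (limma adjusted p = 2.62e-08). GSTU4 passed the filter through the NAE 18:3 libraries, and its ratio rests on a DMSO mean of 0.779 FPKM.

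GSTU6 and GSTU1 rose less, and GSTU3 was barely detected. GSTU6 (AT2G29440), which lies between GSTU5 and GSTU7, had 31.6, 28.7 and 29.5 FPKM in the NAE 18:3 libraries and 11.1, 11.8 and 12.4 FPKM in the DMSO libraries, a log2 change of 1.28 (limma adjusted p = 7.34e-08). GSTU1 (AT2G29490), at the other end, had 8.74, 8.66 and 8.87 FPKM in the NAE 18:3 libraries and 2.16, 1.76 and 2.42 FPKM in the DMSO libraries, a log2 change of 1.65 (limma adjusted p = 2.98e-07). Neither gene's groups overlapped. GSTU3 (AT2G29470) was near the detection limit, at 0.422, 0.142 and 0.0557 FPKM in the NAE 18:3 libraries and listed at 0 in the 3 DMSO libraries, and it did not pass in the fit without a filter (limma adjusted p = 0.0668). GSTU6 and GSTU7 had similar levels in DMSO, where GSTU6 was slightly higher in 3 of 3 libraries, and differed by a mean of -2.40 on the log2(FPKM + 1) scale (GSTU6 minus GSTU7) in the NAE 18:3 libraries against 0.19 in the DMSO libraries. Coding sequences in this array share 64.1% to 83.9% of aligned bases, so reads of the closest copies may have been divided between them.

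GSTU19 (AT1G78380), the most abundant tau locus in both groups and a gene known to respond to herbicide safeners, had 735, 724 and 744 FPKM in the NAE 18:3 libraries and 301, 299 and 299 FPKM in the DMSO libraries. Its log2 change was 1.29 (SE 0.03; limma adjusted p = 4.52e-10). Its share of the tau sum was 39.7% to 40.4% in the NAE 18:3 libraries and 47.4% to 48.0% in the DMSO libraries. In the same array (chr1:29467412-29488007), GSTU22 (AT1G78340) had 3.62, 3.04 and 3.84 FPKM in the NAE 18:3 libraries and 0.993, 1.18 and 1.41 FPKM in the DMSO libraries, a log2 change of 1.04 (limma adjusted p = 3.81e-05). GSTU23 (AT1G78320) moved the other way, at 0.0739, 0.149 and 0.293 FPKM in the NAE 18:3 libraries and 1.38, 0.885 and 0.993 FPKM in the DMSO libraries. It lay under the filter, and in the fit without a filter its log2 change was -0.83 (limma adjusted p = 0.000455). GSTU21 (AT1G78360) was listed at 0 in 4 of 6 libraries and reached 0.0998 FPKM at most. GSTU20, which lies between GSTU19 and GSTU21 but was not in the set, had 16.3, 15.1 and 16.99 FPKM in the NAE 18:3 libraries and 193, 198 and 202 FPKM in the DMSO libraries. GSTU20 is known to interact with the jasmonate-conjugating enzyme JAR1, and its log2 change of -3.53 was opposite in sign to that of GSTU19 next to it.

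GSTU17 (AT1G10370, ERD9), linked to light signalling and drought, and GSTU18 form a pair on chromosome 1 and were both higher. Their annotated ends overlap in TAIR10.1, so reads there cannot be told apart. GSTU17 had 119.9, 125 and 125 FPKM in the NAE 18:3 libraries and 73.7, 69.8 and 77.2 FPKM in the DMSO libraries, a log2 change of 0.74 (limma adjusted p = 3.64e-07). The locus of GSTU18 (AT1G10360), joined with the neighbour AT1G10350, had 57.8, 61.3 and 67.8 FPKM in the NAE 18:3 libraries and 22.3, 24.4 and 21.3 FPKM in the DMSO libraries, a log2 change of 1.42 (limma adjusted p = 1.19e-07). Summing only the transcripts assigned to GSTU18 gave 46.0, 49.1 and 54.8 FPKM in the NAE 18:3 libraries and 14.5, 16.5 and 13.002 FPKM in the DMSO libraries. This rests on the assembler's division of the joined locus, in which the main transcript assigned to AT1G10350 was also at higher levels after NAE 18:3, at 10.05, 11.3 and 11.4 FPKM in the NAE 18:3 libraries and 6.18, 7.43 and 6.94 FPKM in the DMSO libraries. GSTU16 (AT1G59700) had 27.0, 25.5 and 27.6 FPKM in the NAE 18:3 libraries and 6.96, 5.46 and 7.09 FPKM in the DMSO libraries, a log2 change of 1.89 (limma adjusted p = 9.47e-08). Its tandem partner GSTU15 (AT1G59670) was listed at 0 in 5 libraries and at 0.0695 FPKM in NAE 18:3 replicate 1. GSTU11 and GSTU12, another pair, were low and higher after NAE 18:3. GSTU12 (AT1G69920) had 2.79, 3.53 and 2.96 FPKM in the NAE 18:3 libraries and 0.659, 0.844 and 1.38 FPKM in the DMSO libraries, a log2 change of 1.08 (limma adjusted p = 0.000164). GSTU11 (AT1G69930) had 1.82, 1.56 and 1.48 FPKM in the NAE 18:3 libraries and 0.229, 0 and 0.0568 FPKM in the DMSO libraries, and in the fit without a filter its log2 change was 1.26 (limma adjusted p = 2.26e-05).

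The remaining tau loci moved in both directions. GSTU13 (AT1G27130), which acts in the metabolism of indole glucosinolates during defence, had 32.96, 30.6 and 34.0 FPKM in the NAE 18:3 libraries and 36.2, 36.7 and 34.5 FPKM in the DMSO libraries. Its log2 change of -0.14 passed narrowly (limma adjusted p = 0.0323), a call lost without NAE 18:3 replicate 1 or 2 or DMSO replicate 1 or 2 (limma adjusted p from 0.055 to 0.114). GSTU14 (AT1G27140) beside it, with 87.3% of aligned coding bases in common, had 0.601, 0.952 and 0.544 FPKM in the NAE 18:3 libraries and 5.71, 3.66 and 3.90 FPKM in the DMSO libraries, and fell by 1.66 on the log2 scale (limma adjusted p = 1.44e-05). GSTU27 (AT3G43800) had 16.6, 14.0 and 16.8 FPKM in the NAE 18:3 libraries and 50.5, 50.2 and 51.1 FPKM in the DMSO libraries, and fell by 1.62 (limma adjusted p = 3.93e-08). GSTU10 (AT1G74590) had 1.40, 1.24 and 0.9195 FPKM in the NAE 18:3 libraries and 2.52, 3.03 and 3.06 FPKM in the DMSO libraries, and fell by 0.83 (limma adjusted p = 0.000225). GSTU8 (AT3G09270) had 12.2, 9.67 and 10.4 FPKM in the NAE 18:3 libraries and 14.9, 13.5 and 15.1 FPKM in the DMSO libraries, and fell by 0.40 (limma adjusted p = 0.00226). None of these groups overlapped.

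The array GSTU24 to GSTU26 was split. GSTU24 (AT1G17170), an enzyme known to act on the explosive TNT, had 9.34, 7.48 and 7.82 FPKM in the NAE 18:3 libraries and 3.77, 4.08 and 4.78 FPKM in the DMSO libraries, a log2 change of 0.82 (limma adjusted p = 7.5e-05). GSTU26 (AT1G17190) had 20.9, 22.4 and 19.6 FPKM in the NAE 18:3 libraries and 27.5, 26.9 and 25.8 FPKM in the DMSO libraries, and fell by 0.34 (limma adjusted p = 0.000479). GSTU25 (AT1G17180), with a like known activity on TNT, lies between them and had overlapping groups, at 4.14 ± 0.731 FPKM after NAE 18:3 and 4.30 ± 0.879 FPKM in DMSO (SD, n = 3 each). GSTU9 (AT5G62480) had 9.96, 9.44 and 10.7 FPKM in the NAE 18:3 libraries and 3.44, 2.86 and 3.66 FPKM in the DMSO libraries, a log2 change of 1.36 (limma adjusted p = 9.59e-07). GSTU28 (AT1G53680) had 0.955, 0.962 and 1.59 FPKM in the NAE 18:3 libraries and 0.992, 1.53 and 1.38 FPKM in the DMSO libraries, which overlapped, and was not called (limma adjusted p = 0.609).

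**Figure D3:**
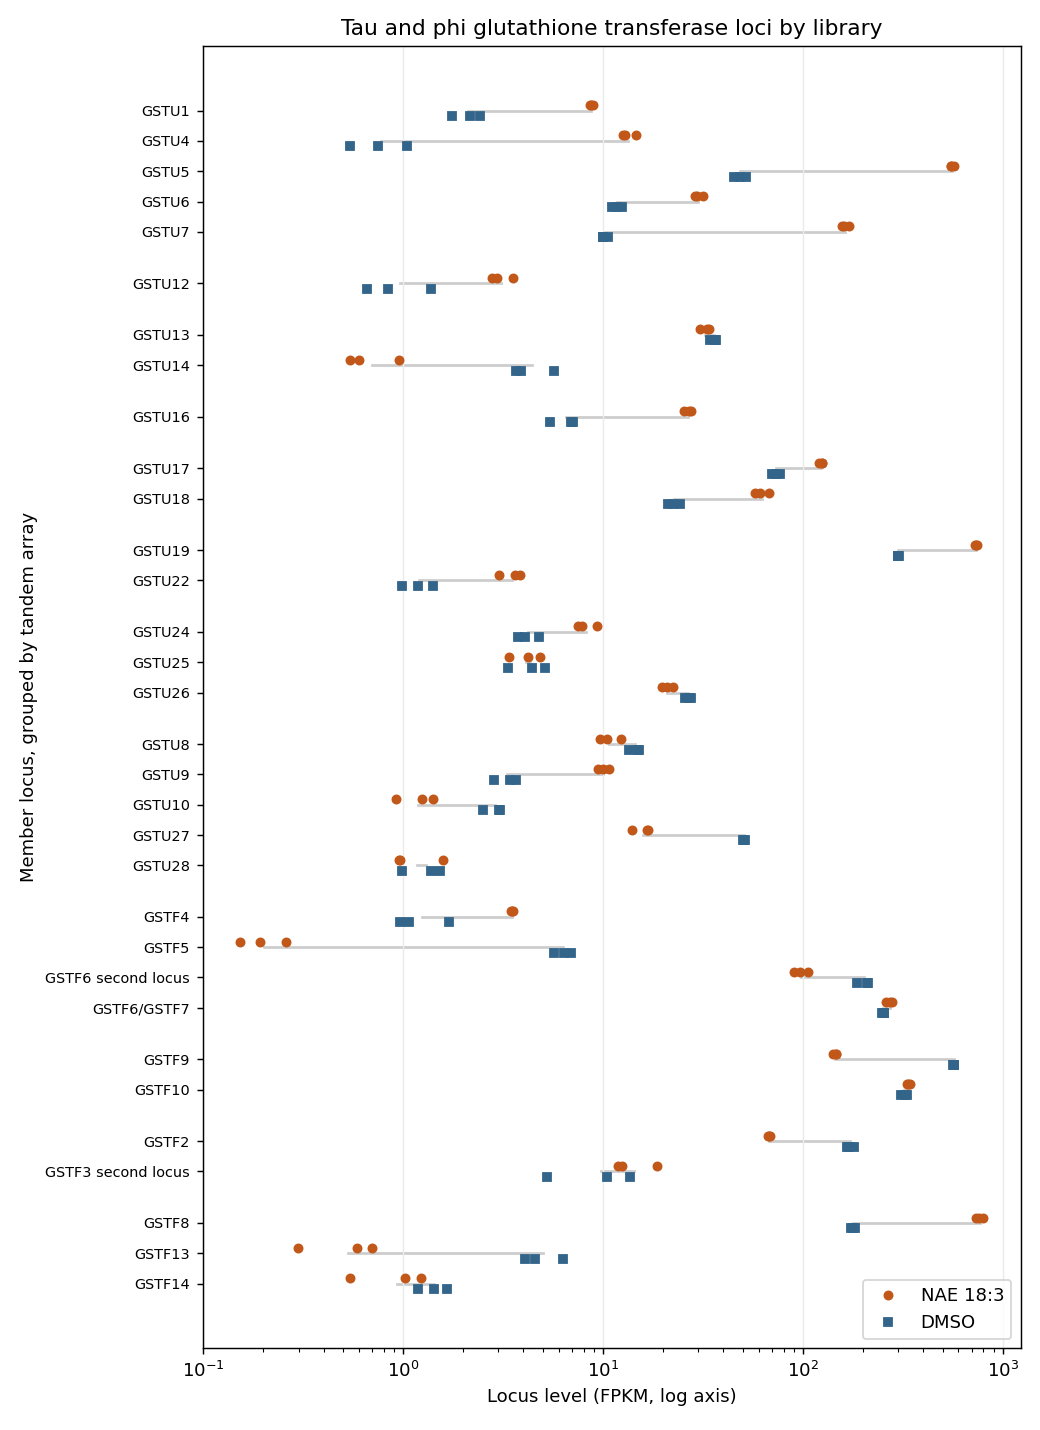
FPKM (x axis, log scale) of the 32 tested member loci (y axis, grouped by tandem array) in each library, with NAE 18:3 as circles above DMSO as squares and a grey line between the group means. GSTU5, GSTU7, GSTU19 and GSTF8 lie to the right after NAE 18:3, while GSTF9, GSTF2, GSTF5 and GSTU27 lie to the left.

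Among phi genes GSTF8 (AT2G47730), a widely used stress reporter gene whose promoter answers to salicylic acid and hydrogen peroxide, had the largest rise on the log2(FPKM + 1) scale. It had 738, 765 and 799 FPKM in the NAE 18:3 libraries and 177, 183 and 174 FPKM in the DMSO libraries, a log2 change of 2.099 (SE 0.04; limma adjusted p = 2.47e-10). After NAE 18:3 its values overlapped those of GSTU19, and both were above all other member loci, whereas in DMSO GSTF9 was the most abundant locus, followed by GSTF10 and GSTU19. The GSTF8 locus, joined with AT2G47720 whose transcript was listed at 0, held a pair of assembled transcripts with reads, and the minor of them made up 18.3%, 21.8% and 17.2% of the locus in the NAE 18:3 libraries and 7.29%, 6.22% and 5.84% in the DMSO libraries. This is the assembler's division of reads between overlapping transcripts and has no counting error attached.

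GSTF9 and GSTF10, neighbours at chr2:13138882-13142676 with 77.6% of aligned coding bases in common, diverged. GSTF9 (AT2G30860) had 142, 147 and 147 FPKM in the NAE 18:3 libraries and 570.1, 570.5 and 561 FPKM in the DMSO libraries, and fell by 1.96 (SE 0.03; limma adjusted p = 9.68e-11). GSTF10 (AT2G30870), the gene ERD13 whose protein is known to bind the receptor kinase BAK1, had 345, 337 and 333 FPKM in the NAE 18:3 libraries and 323, 311 and 331 FPKM in the DMSO libraries. Its log2 change of 0.07 was not called (limma adjusted p = 0.0611), but it was called higher without DMSO replicate 3 (limma adjusted p = 0.0293). With upper-quartile scaling it was called lower, at -0.28 (limma adjusted p = 6.02e-05), near the median of -0.25 for all loci on that scale. With quantile normalization the change of GSTF10 was 2.49e-05. The difference GSTF9 minus GSTF10 in log2(FPKM + 1) was -1.28, -1.19 and -1.18 in the NAE 18:3 libraries and 0.82, 0.87 and 0.76 in the DMSO libraries. Over all 17 pairs of neighbouring member loci in tandem arrays, 15 reached an exact two-sided permutation p of 0.1 for such a difference (adjusted p = 0.113). That is the smallest p that 3 against 3 libraries allow and says only that the groups did not overlap, as at 84.6% of single loci. The share among other pairs of loci was not computed, and the 5 pairs with GSTU3, GSTU15 or GSTU21, which lie near 0 FPKM, largely restate the other gene's change. The exceptions were GSTU11 and GSTU12 (exact p = 0.4) and GSTU25 and GSTU26 (exact p = 0.3).

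The array GSTF4 to GSTF7 (chr1:658578-666471) moved in both directions. GSTF5 (AT1G02940) had 0.192, 0.259 and 0.152 FPKM in the NAE 18:3 libraries and 6.93, 5.72 and 6.36 FPKM in the DMSO libraries. Its mean was 31.5 times as high in DMSO, and it fell by 2.61 (limma adjusted p = 3.63e-08). GSTF5 passed the filter through the DMSO libraries, and its ratio rests on a mean of 0.201 FPKM after NAE 18:3. GSTF4 (AT1G02950) had 3.56, 3.46 and 3.52 FPKM in the NAE 18:3 libraries and 0.963, 1.07 and 1.70 FPKM in the DMSO libraries, a log2 change of 1.02 (limma adjusted p = 9.2e-05). The GSTF4 minus GSTF5 difference was 1.83 to 1.97 in the NAE 18:3 libraries and -2.01 to -1.45 in the DMSO libraries on the log2(FPKM + 1) scale, so their order was reversed between the groups.

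GSTF6 (AT1G02930) encodes an enzyme of camalexin synthesis and shares 94.7% of aligned coding bases with GSTF7 (AT1G02920). Their joined locus had 274, 280.1 and 261 FPKM in the NAE 18:3 libraries and 255, 248 and 253 FPKM in the DMSO libraries, a log2 change of 0.11 (limma adjusted p = 0.0145). That call depended on the setting. With upper-quartile scaling the change was -0.24 and called lower (limma adjusted p = 0.000231), near the median of -0.25 for all loci on that scale. With quantile normalization it was 0.02 (limma adjusted p = 0.719). Without NAE 18:3 replicate 2 or DMSO replicate 2 the limma adjusted p was 0.0516 and 0.052. With no mean-variance trend the limma adjusted p was 0.0661. The assembler divided this locus between the genes, a division that is uncertain between such close copies, and the values below and their p-values rest on it. GSTF7 transcripts had 117, 122 and 115 FPKM in the NAE 18:3 libraries and 56.1, 54.4 and 56.4 FPKM in the DMSO libraries, a log2 change of 1.08 (limma adjusted p = 7.66e-09). GSTF6 transcripts, summed over both of its loci, had 253, 248 and 252 FPKM in the NAE 18:3 libraries and 386, 406 and 405 FPKM in the DMSO libraries, and fell by 0.67 (limma adjusted p = 6.5e-08). The second GSTF6 locus alone had 96.8, 90.1 and 106 FPKM in the NAE 18:3 libraries and 187, 212 and 209 FPKM in the DMSO libraries, and fell by 1.04 (limma adjusted p = 8.39e-07). Of 95 loci with numbers near that of the second locus, 94 hold genes of the plus strand, whereas GSTF6 lies on the minus strand, and the library kit does not mark strand, so the strand and the copy that these reads came from are uncertain.

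GSTF2 (AT4G02520), known for binding small ligands such as camalexin, had 68.5, 67.3 and 66.7 FPKM in the NAE 18:3 libraries and 167, 169 and 181 FPKM in the DMSO libraries, and fell by 1.34 (limma adjusted p = 3.74e-09). Its near copy GSTF3 (AT2G02930), with 94.5% of aligned coding bases in common, was low at its first locus, at 0.508 to 0.879 FPKM after NAE 18:3 and 0.835 to 1.23 FPKM in DMSO. The second GSTF3 locus varied widely within groups, with 12.5, 11.9 and 18.7 FPKM in the NAE 18:3 libraries and 10.47, 13.6 and 5.24 FPKM in the DMSO libraries, and was not called (limma adjusted p = 0.0999), although without DMSO replicate 2 it was (limma adjusted p = 0.027). GSTF13 (AT3G62760) had 0.590, 0.297 and 0.703 FPKM in the NAE 18:3 libraries and 4.09, 6.29 and 4.57 FPKM in the DMSO libraries, and fell by 1.96 (limma adjusted p = 4.63e-06). GSTF14 (AT1G49860) stood at 0.931 ± 0.351 FPKM after NAE 18:3 and 1.43 ± 0.238 FPKM in DMSO (SD, n = 3 each) and was not called (limma adjusted p = 0.0807), but it was lower with upper-quartile scaling (limma adjusted p = 0.0141) and without NAE 18:3 replicate 1 (limma adjusted p = 0.0432).

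Genes around the tau and phi enzymes were read from the same fit. Of 12 tested loci of other glutathione transferases, 7 were higher (44.1% of all loci) and 5 lower (39.2% of all loci), with a median log2 change of 0.33. After upper-quartile scaling 4 were higher (32.2% of all loci) and 5 lower (52.2% of all loci) with a median of 0.01. After quantile normalization the median was 0.08. The lambda class genes GSTL2 and GSTL3 were higher by 1.28 and 0.81, and the dehydroascorbate reductase DHAR2 by 0.63 (limma adjusted p = 2.1e-07, 1.59e-07 and 3.21e-07). The 3 tau and phi genes outside the set were lower: GSTF12, needed for anthocyanin accumulation, had a log2 change of -5.14, GSTU20 of -3.53 and GSTF11, linked to aliphatic glucosinolates, of -2.24. DHAR1, another dehydroascorbate reductase, fell by 0.76 (limma adjusted p = 5.4e-08).

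Of 14 tested loci of glutathione metabolism, 6 were higher, 5 lower and 3 not called, shares near those of all loci (44.1% higher and 39.2% lower). After upper-quartile scaling 4 were higher (32.2% of all loci) and 9 lower (52.2% of all loci). The median log2 change of 0.12 changed sign to -0.22 under upper-quartile scaling and -0.16 under quantile normalization. GR2, the plastid and mitochondrial glutathione reductase, was higher (limma adjusted p = 9.92e-09) at 126.5 ± 1.69 FPKM after NAE 18:3, against 67.7 ± 0.648 FPKM in DMSO (SD, n = 3 each). GR1, the cytosolic form, was lower (limma adjusted p = 3.46e-06) at 43.8 ± 3.10 FPKM after NAE 18:3, against 71.1 ± 2.45 FPKM in DMSO (SD, n = 3 each). GGCT2;1, which degrades glutathione in the cytosol, had 0.190, 0 and 0.201 FPKM in the NAE 18:3 libraries and 45.9, 44.8 and 47.5 FPKM in the DMSO libraries (limma adjusted p = 1.68e-10), while GGCT2;2 was higher by 1.04. GGT1, an apoplastic enzyme of glutathione breakdown, was higher by 1.79 and the vacuolar GGT4, which acts on glutathione conjugates, fell by 0.88. The gene of glutathione synthetase, GSH2, had a log2 change of 0.54. GSH1, of the first step of synthesis, had one of 0.13 as deposited, -0.22 under upper-quartile scaling and -0.20 under quantile normalization. The ABCC transporters are a family of which some members move conjugates into the vacuole. Of 5 tested ABCC genes, 2 were higher (44.1% of all loci), ABCC1 by 0.97 and ABCC3 by 0.52. ABCC4 was lower (39.2% of all loci), by 0.41, and ABCC2 and ABCC5 were not called. The median of these 5 was 0.13, and it changed sign to -0.21 under upper-quartile scaling and -0.13 under quantile normalization. Under upper-quartile scaling 2 were higher (32.2% of all loci) and 3 lower (52.2% of all loci). ABCC2 and ABCC5 were then called lower, at -0.21 and -0.27 (limma adjusted p = 0.00591 and 0.000331), beside -0.25 for the median of all loci. ABCC5 was also called lower under quantile normalization (limma adjusted p = 0.00284).

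Of 11 regulator genes 7 were higher (44.1% of all loci), 2 lower (39.2% of all loci) and 2 not called, with a median log2 change of 0.50. After upper-quartile scaling 6 were higher (32.2% of all loci) and 3 lower (52.2% of all loci), with a median of 0.18. The NAC factor genes ATAF2, NAC102 and ATAF1, which are linked to the detoxification pathway of TGA factors and their partner SCL14, had log2 changes of 5.25, 5.00 and 4.51 (limma adjusted p = 1.54e-11, 1.06e-10 and 2.48e-10). SCL14 itself stood at 18.1 ± 0.523 FPKM after NAE 18:3 and 7.85 ± 0.310 FPKM in DMSO (SD, n = 3 each; limma adjusted p = 1.17e-07). The TGA factor genes had smaller changes, with TGA5 and TGA4 higher by 0.50 and 0.45, TGA3 and TGA1 lower at -0.40 and -0.32, and TGA2 and TGA6 not called. Among 11 loci of other xenobiotic-response genes 9 were higher (44.1% of all loci) and 2 lower (39.2% of all loci), with a median of 2.86. Of these 11 loci, 4 had a mean under 1 FPKM in 1 group and passed the filter through the other. All 4 were called, where 93.0% of all such loci were. The cytochrome P450 genes CYP81D11 and CYP81D8, with DMSO means of 0.430 and 0.449 FPKM, are among these 4. They were higher by 4.88 and 4.49 (limma adjusted p = 9.02e-10 and 2.07e-10). AER, an alkenal reductase, was higher by 2.86 (limma adjusted p = 3.06e-11). The joined locus of the oxophytodienoate reductase genes OPR1 and OPR2 was higher by 3.83 (limma adjusted p = 7.15e-11). The locus that joins ABCG40 with AT1G15510 (ECB2) had a log2 change of -1.88, which cannot be assigned to either gene. The transporter gene DTX3 had one of -0.74, while the other ABCG40 locus was higher by 1.06.

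**Figure D4:**
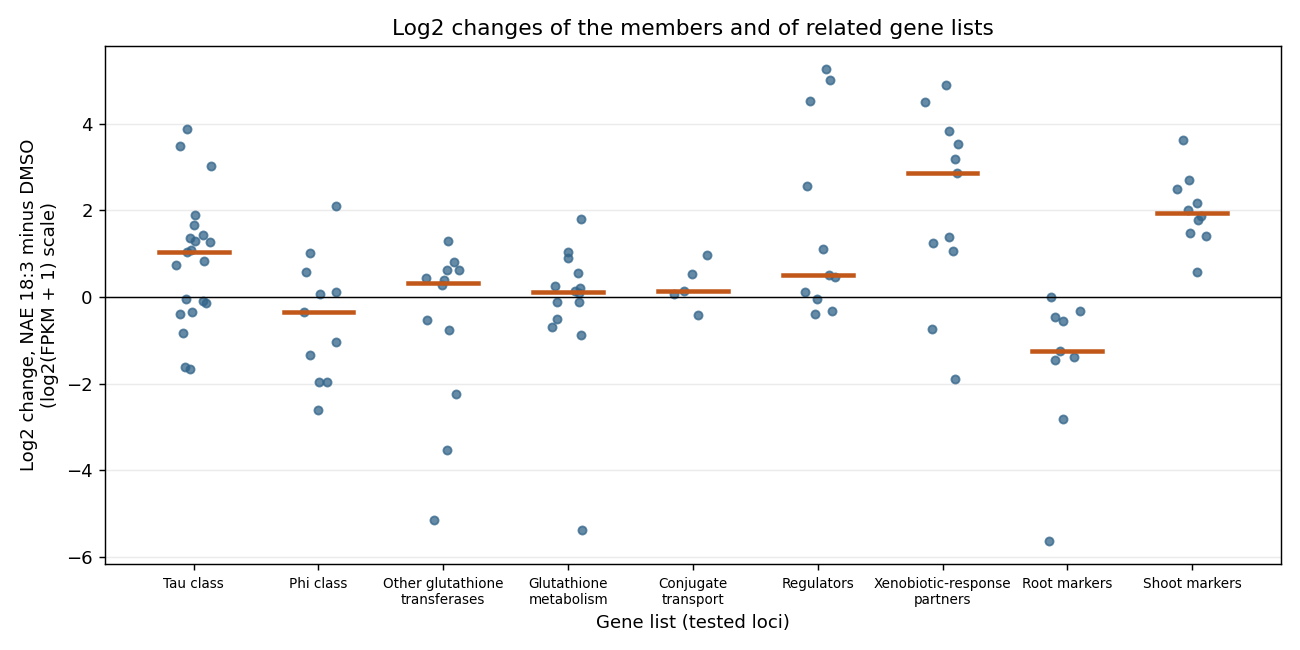
Log2 change (y axis, NAE 18:3 minus DMSO, in log2(FPKM + 1)) of each tested locus (points) in the tau and phi classes and in related lists, with the median as a bar. The medians are 1.04 for tau, -0.34 for phi, 0.50 for the regulators, 2.86 for the xenobiotic-response genes, -1.24 for the root markers and 1.94 for the shoot markers.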

How the data were processed

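RNA was sequenced from 3 NAE 18:3 and 3 DMSO libraries made with the TruSeq RNA kit, per the labels' protocols. The deposited values are FPKM per assembled transcript and per locus, a unit taken from the tools and the values because the headers do not name it. Per the submitters' processing notes the tools were TopHat, Cufflinks and Cuffdiff with genome build TAIR9; versions and settings are not given in the sources used here. The samples' descriptions name the columns, and 4 columns of merged values were not used. A limma 3.58.1 model (R 4.3.3) of log2(FPKM + 1) on group alone, with its trend option, was run for loci averaging 1 FPKM or more. The fit was also run on simulated data in which few loci changed. In the data themselves 83.2% of loci were called, a setting that the simulation did not cover. A locus was called at a Benjamini-Hochberg adjusted p under 0.05. FPKM carries no read counts, so no counting intervals are given. The assembly joined several genes in 644 loci, whose values cannot be divided.

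Every member is named, with all values where the log2 change was at least 1 in size, and from each related list up to 3 higher and 3 lower genes with the smallest adjusted p; further genes of the lists were named after their values were seen. The members and lists were chosen with earlier results of these data known. The deposited table holds no coordinates. Promoters of 300 bases and coding sequences were read by gene identifier from RefSeq TAIR10.1, and coding sequences were aligned globally with Biopython 1.88. Alternatives were 2 other pseudocounts, 2 other filters, 2 other scalings, a replicate block, no trend, transcripts summed per gene, joined loci left out and each library left out.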

Additional observations from a re-analysis of the deposited data

How the results depend on the processing

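Over 16 alternatives, 475 of 496 member log2 changes kept their direction and side of the threshold, as did 15 of 17 loci with a value in all 16 and 10 of the 15 that lack a value at 5 FPKM, with joined loci left out or with transcripts summed. The tau median was 1.29 and 1.24 with pseudocounts of 0.1 and 0.5, 0.78 without a filter, 1.29 at a minimum of 5 FPKM, 0.80 with upper-quartile scaling and 0.93 with joined loci left out. The phi median was -0.62 with a pseudocount of 0.1 and -1.04 with joined loci left out, and it changed sign to 0.073 at a minimum of 5 FPKM and 2.49e-05 with quantile normalization. At 5 FPKM, where fewer loci were tested (13495), 13 members were higher (51.1% of all loci) and 7 lower (35.6% of all loci). The sign also changed for GSTF6/GSTF7 (-0.24) and GSTF10 (-0.28) with upper-quartile scaling, for GSTU25 (0.10), GSTF14 (0.000369) and GSTU28 (0.26) with quantile normalization, and for GSTU25 when a library was left out (range -0.17 to 0.072, above 0 without NAE 18:3 replicate 1 or DMSO replicate 1). The cause was not tested. Leaving out each library gave 15 to 17 members higher (42.4% to 43.7% of all loci) and 10 to 11 lower (37.7% to 38.8% of all loci). The tau median was then 0.96 to 1.11 and the phi median -0.46 to -0.19.

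Upper-quartile scaling moved the median of all loci to -0.25, from which changes on that scale are to be read, and 38.1% of calls were then higher, against 52.9% as reported. Same-numbered libraries did not deviate together (correlations -0.0133, -0.00872 and 0.0182). With the replicate number as a block, 16 members were higher (43.7% of all loci) and 10 lower (38.8% of all loci). GSTU13 was then no longer called (limma adjusted p = 0.0613). Applied to the related lists after the data were seen, both scalings reversed the medians of glutathione metabolism (-0.22 with upper-quartile scaling, -0.16 with quantile normalization) and conjugate transport (-0.21 and -0.13). The unknown depth limits loci near 0 FPKM.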
